A study of Saccharomyces cerevisiae with 4 samples.

Results

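The lysosome-like vacuole of budding yeast holds proteases that are made as inactive precursors, delivered through the secretory pathway and matured inside the vacuole. Small cytosolic proteins inhibit some of them. The 8 genes described here were chosen by name. They are 6 vacuolar protease genes, PEP4, PRB1, PRC1, CPS1, APE3 and DAP2, and 2 inhibitor genes, PAI3 and PBI2. All were found among the 6682 genes of the deposited tables (6664 of them nuclear). The choice does not cover every vacuolar protease, and the list of other vacuolar hydrolases below holds further ones. Messenger RNA had been sequenced from Saccharomyces cerevisiae of the SK1 strain, which is widely used to study meiosis, at 4 h in sporulation medium (0.3% potassium acetate, 30 °C). There were 2 samples of ndt80pch2, in which NDT80 and PCH2 are deleted, and 2 of ndt80, in which NDT80 alone is deleted. Both strains therefore lack Ndt80, the transcription factor needed to leave meiotic prophase, and no sample carries an intact NDT80. The PCH2 deletion is read from the sample titles and source names, while the characteristics of all 4 samples name the NDT80 deletion only. The labels do not say whether each sample is its own culture, so the p-values reflect variation among these samples that could be technical.

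Yeast cells enter meiosis when nitrogen and a fermentable carbon source are missing, and they then draw amino acids from their own proteins. Breakdown in the vacuole supplies much of this, and diploids that lack vacuolar proteinase activity sporulate poorly. PEP4 encodes proteinase A, an aspartic protease that starts the maturation of other vacuolar precursors, and PRB1 encodes proteinase B, a serine protease of the subtilisin family that continues it. PAI3 encodes the inhibitor of proteinase A and PBI2 an inhibitor of proteinase B.

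The deposited tables give 1 value per gene and strain, on a scale like TPM (reads divided by coding length in kb and brought to a common total). Each value was separated into the whole reads of the strain's 2 libraries, called C and D for ndt80pch2 and A and B for ndt80 because replicate numbers 1 and 2 cannot be assigned to them from the values. Nuclear genes with a value in all 4 libraries (6645) held 1656203 reads in C, 1655407 in D, 2099576 in A and 2305666 in B. PCH2 (YBR186W) had 0 reads in libraries C and D, against 710 and 776 reads in A and B, and NDT80 (YHR124W) had 0 reads in all 4. Of 5783 genes tested, 1 passed an adjusted p under 0.05 (PCH2, limma-trend adjusted p = 0.000115), a background of 0.0173%. Without library A, and without B, 0 genes passed. The 10 markers of meiotic prophase summed to 5471 and 6285 TPM in C and D and to 5548 and 5999 TPM in A and B, with none at 0. The labelled cell type thus carried its markers, while 13 haploid and mating genes summed to 69.4 and 95.7 TPM in C and D and to 96.1 and 91.4 TPM in A and B, with MFA1 and MFA2 at 0. MFA1 and MFA2 have only 111 and 117 coding bases, and whether genes so short would be detected was not tested. The sums of 12 genes of the vegetative cell cycle were 137.2 and 162.9 TPM in C and D and 164.9 and 206.5 TPM in A and B, with none at 0. For 13 genes of middle sporulation, most of them Ndt80 targets, the sums were 920.9 and 956.7 TPM in C and D and 967.3 and 948.8 TPM in A and B, with NDT80 at 0. Over these 4 marker lists 0 genes passed limma-trend, and limma-voom called 1, DMC1, the meiotic recombinase gene (241.6 ± 15.3 TPM in ndt80pch2 and 483.5 ± 10.4 in ndt80, SD, n = 2 each). At an unadjusted p under 0.05 there was 1 lower gene of 10 tested for prophase, 1 higher and 1 lower of 12 for middle sporulation, 0 of 10 for haploid genes and 0 of 12 for the vegetative cycle. Over all tested genes, 2.70% were higher and 13.1% lower at that threshold.

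The DNA upstream of the genes is shown for 4 members: both proteases that act first in the maturation cascade, and the inhibitor of each. Windows run from 400 to 101 bases before the start codon, 5′ to 3′ on the gene's own strand, and were read from the RefSeq R64 genome. That genome is of another strain background than SK1, so single bases may differ in the cells sequenced. Capitals mark GATAAG, a site read by GATA factors of nitrogen control, AGGGG, the stress response element, and GGCGGC, the core of the Ume6 site URS1. Each was searched on both strands, so a site on the other strand appears as its reverse complement. The windows are chrXVI:261032-261331 on the minus strand for PEP4, chrV:42054-42353 on the minus strand for PRB1, chrXIII:610466-610765 on the minus strand for PAI3 and chrXIV:604984-605283 on the plus strand for PBI2.
PEP4: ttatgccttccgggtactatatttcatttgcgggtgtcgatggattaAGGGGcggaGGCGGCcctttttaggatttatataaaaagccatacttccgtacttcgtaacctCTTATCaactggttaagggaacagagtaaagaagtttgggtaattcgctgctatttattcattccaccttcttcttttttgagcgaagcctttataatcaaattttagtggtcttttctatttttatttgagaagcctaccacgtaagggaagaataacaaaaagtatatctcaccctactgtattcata
PRB1: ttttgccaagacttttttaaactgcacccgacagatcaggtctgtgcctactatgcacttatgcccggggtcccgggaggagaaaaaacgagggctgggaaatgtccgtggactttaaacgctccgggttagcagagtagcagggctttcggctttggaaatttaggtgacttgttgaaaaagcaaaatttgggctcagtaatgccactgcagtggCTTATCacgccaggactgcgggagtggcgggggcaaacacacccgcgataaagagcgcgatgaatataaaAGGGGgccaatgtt
PAI3: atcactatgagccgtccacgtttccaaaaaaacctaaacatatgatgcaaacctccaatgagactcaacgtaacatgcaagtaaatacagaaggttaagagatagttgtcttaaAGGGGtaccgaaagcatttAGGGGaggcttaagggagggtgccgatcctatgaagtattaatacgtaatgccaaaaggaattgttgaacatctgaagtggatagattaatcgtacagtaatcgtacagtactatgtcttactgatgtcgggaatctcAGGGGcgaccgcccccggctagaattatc
PBI2: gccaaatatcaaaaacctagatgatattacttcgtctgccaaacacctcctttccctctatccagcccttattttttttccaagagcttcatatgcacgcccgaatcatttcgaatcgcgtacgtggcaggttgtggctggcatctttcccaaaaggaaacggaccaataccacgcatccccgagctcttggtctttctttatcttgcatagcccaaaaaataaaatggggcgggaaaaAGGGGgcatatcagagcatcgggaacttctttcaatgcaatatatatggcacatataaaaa

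GATAAG stood in the windows of 5 of the 8 members (PEP4, PRB1, PRC1, APE3 and CPS1, the last with 2 overlapping copies), against 13.9% of 6662 nuclear windows of the same length. The GATAAG copies of PEP4 and PRB1 lie 290 to 285 and 184 to 179 bases before their start codons, and neither inhibitor window holds one. AGGGG stood in 7 of the 8 windows, against 23.1% of all windows. PAI3 has 3 copies of it, at 286 to 282, 267 to 263 and 129 to 125 bases before the start codon, and 3.89% of all windows hold 2 or more. GGCGGC stood in 1 member window, that of PEP4, at 344 to 339 bases before the start codon, and in 6.09% of all windows. The DAP2 window holds none of the 3 motifs, and 296 of its 300 bases lie in neighbouring annotated genes. These are matches of letters, given as a description without a test.

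The transcripts of the 8 genes differed widely in level. In whole cultures, fewer cells with a transcript and less of it per cell cannot be told apart. PRB1 was the highest in every library, at rank 30 of 6645 nuclear genes by mean TPM, and PBI2 the lowest in every library, at rank 4755. PRB1 alone made up 60.6% and 60.5% of the summed TPM of the 6 proteases in libraries C and D, and 57.6% and 59.3% in A and B. The proteases together took 0.519% and 0.563% of the nuclear TPM in C and D, and 0.473% and 0.503% in A and B. The median tested gene had a mean of 54.7 TPM, so that CPS1 and PBI2 lay below it and the other 6 members above.

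**Figure D1:**
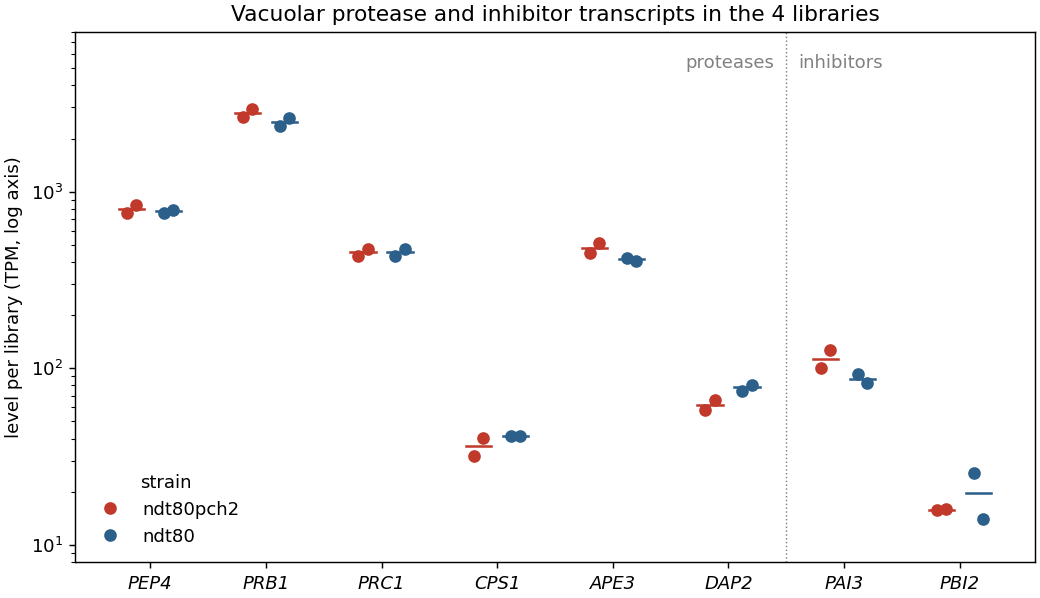
TPM (log axis) of the 8 genes in each library, with ndt80pch2 (libraries C and D, left to right) left of ndt80 (A and B), points for libraries and lines for strain means. PRB1 lies between 2347 and 2959 TPM, and PBI2 between 14.0 and 25.5 TPM. Both ndt80pch2 points lie above both ndt80 points for PRB1, APE3 and PAI3, and below them for CPS1 and DAP2.

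PEP4 (YPL154C, chromosome XVI, 259714 to 260931, minus strand) had 758.8 and 839.6 TPM in ndt80pch2 (1295 and 1399 reads), against 762.4 and 790.3 TPM in ndt80 (1597 and 1811 reads). The means were 799.2 ± 57.1 and 776.3 ± 19.7 TPM (ndt80pch2 and ndt80; SD, n = 2 each). The groups overlapped, since library C lay below both ndt80 libraries. The log2 fold change, relative to the median of all genes, was 0.19 ± 0.095 (SE; limma-trend adjusted p = 0.839), and 0.097 without library D. Fold changes here are taken on log2(TPM + 1), ndt80pch2 over ndt80. The median of all tested genes was -0.15 on that scale, and it is subtracted from each fold change, while the p-values test the change without it.

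PRB1 (YEL060C, chromosome V, 40046 to 41953, minus strand) had 2657 and 2959 TPM in ndt80pch2 (7102 and 7724 reads), against 2347 and 2609 TPM in ndt80 (7700 and 9365 reads). Both ndt80pch2 libraries lay above both ndt80 libraries, with C only slightly above B. The relative log2 fold change was 0.33 ± 0.12 (SE), and the difference did not pass the test (limma-trend adjusted p = 0.454). Before the median is subtracted, the ratio of strain means was 1.13, while D was 1.11 times C and B was 1.11 times A.

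The vacuolar carboxypeptidases remove residues from the C-terminal end of peptides. PRC1 (YMR297W, chromosome XIII, 861922 to 863520, plus strand), the gene of carboxypeptidase Y, had 433.4 and 473.2 TPM in ndt80pch2 and 431.6 and 474.0 TPM in ndt80. The strain means of PRC1 were 453.3 ± 28.1 and 452.8 ± 30.0 TPM (ndt80pch2 and ndt80; SD, n = 2 each), and the relative log2 fold change was 0.15 ± 0.097 (SE; limma-trend adjusted p = 0.994), 0.079 without library A and 0.068 without D. CPS1 (YJL172W, chromosome X, 97737 to 99467, plus strand), the gene of the zinc-dependent carboxypeptidase S, had 31.7 and 40.5 TPM in ndt80pch2 (77 and 96 reads), against 41.3 and 41.1 TPM in ndt80 (123 and 134 reads). Both ndt80pch2 libraries were lower, D by less than 1 TPM. Its relative log2 fold change was -0.05 ± 0.17 (SE; limma-trend adjusted p = 0.557), 0.13 without library C and -0.24 without D. PRC1 exceeded CPS1 13.7- and 11.7-fold in C and D, and 10.4- and 11.5-fold in A and B, per kb.

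The aminopeptidases act on the other end of peptides. APE3 (YBR286W, chromosome II, 774700 to 776313, plus strand), which encodes aminopeptidase Y, had 448.0 and 512.7 TPM in ndt80pch2 (1013 and 1132 reads), against 420.4 and 406.7 TPM in ndt80 (1167 and 1235 reads). Both ndt80pch2 libraries were above both ndt80 libraries. The relative log2 fold change was 0.36 ± 0.099 (SE) and did not pass the test (limma-trend adjusted p = 0.334). DAP2 (YHR028C, chromosome VIII, 164978 to 167434, minus strand), which encodes the membrane-bound dipeptidyl aminopeptidase B, was lower in both ndt80pch2 libraries. It had 57.8 and 66.3 TPM in ndt80pch2 (199 and 223 reads), against 74.8 and 80.9 TPM in ndt80 (316 and 374 reads), with no overlap. The relative log2 fold change of DAP2 was -0.18 ± 0.13 (SE; limma-trend adjusted p = 0.306). It was -0.12 without library B, -0.07 without C and -0.29 without D. An annotated open reading frame on the other strand, YHR028W-A, shares 83 bases with DAP2, and the sources used here do not state whether counting used strand. YHR028W-A had 0 TPM in C, D and A and 1.656 TPM in B, and an effect of the overlap on the DAP2 reads was not tested. No other member overlaps a gene of the tables.

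APE3 and PRC1 were close in level and stood in a different order in the strains. APE3 was 1.03 and 1.08 times PRC1 in C and D, and 0.974 and 0.858 times PRC1 in A and B. The difference of the mean log2 ratios was 0.21 (exact two-sided permutation test, p = 0.333, the smallest that 2 against 2 libraries allow). With 2 inhibitor ratios given further on, 5 ratios were compared, and the Benjamini-Hochberg adjusted p was 0.417 for each of the 4 with an exact permutation p = 0.333. The choice of this ratio, PRB1 to PEP4 and CPS1 to PRC1 was made after the values were seen. The CPS1 to PRC1 ratio differed by -0.20 in mean log2 (exact permutation p = 0.333). PRB1 was 3.50 and 3.52 times PEP4 in C and D, and 3.08 and 3.30 times in A and B, with a difference of 0.14 in mean log2 ratio (exact permutation p = 0.333).

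Both inhibitor transcripts are short and few reads fell on them. PAI3 (YMR174C, chromosome XIII, 610159 to 610365, minus strand) has 207 coding bases and had 29 and 36 reads in ndt80pch2, against 33 and 32 in ndt80. Per kb and library this was 99.99 and 127.1 TPM in ndt80pch2, against 92.7 and 82.2 TPM in ndt80. The ndt80pch2 libraries were both higher, and PAI3 had the largest relative log2 fold change of the members, 0.51 ± 0.15 (SE), which did not pass the test (limma-trend adjusted p = 0.312). It was 0.32 without library D and 0.69 without C. Counting error alone gives a log2 SE of 0.25 for its reads, above the fitted SE. Exact 95% Poisson intervals, which cover counting error only, were 67.0 to 143.6 and 89.0 to 176.0 TPM in C and D and 63.8 to 130.2 and 56.2 to 116.0 TPM in A and B, and all 4 overlapped.

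PBI2 (YNL015W, chromosome XIV, 605384 to 605611, plus strand) has 228 coding bases and had 5 and 5 reads in ndt80pch2, against 10 and 6 in ndt80. These reads correspond to 15.7 and 16.0 TPM in ndt80pch2, against 25.5 and 14.0 TPM in ndt80, and the strains overlapped. The relative log2 fold change was -0.10 ± 0.31 (SE; limma-trend adjusted p = 0.697), 0.31 without library A and -0.50 without B. Counting error alone gives a log2 SE of 0.58 for these reads, above the fitted SE. The Poisson interval of library A ran from 12.2 to 46.9 TPM. Among 200 genes of 150 to 300 coding bases with a mean of at least 1 TPM, whose median was 17.8 TPM, PAI3 ranked 32 and PBI2 101. PBI2 was thus at the middle of genes of its own length, and short genes as a class lay below the median of all tested genes. Whether fragment selection lowers the counts of such short genes was not tested.

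Each inhibitor was set against the protease it inhibits, per kb. PEP4 exceeded PAI3 7.59- and 6.60-fold in libraries C and D, and 8.22- and 9.62-fold in A and B. The PAI3 to PEP4 ratio was higher in both ndt80pch2 libraries, with a difference of 0.33 in mean log2 ratio (exact two-sided permutation p = 0.333, the smallest possible). It was 0.22 without library B and 0.23 without D. For the other pair, PRB1 exceeded PBI2 169.7- and 184.6-fold in C and D, and 92.0- and 186.5-fold in A and B. The low value of library A rests on its 10 reads of PBI2. The difference of the PBI2 to PRB1 ratio was -0.43 in mean log2 (exact permutation p = 1), 0.075 without library A and -0.94 without B. Together the 6 proteases exceeded the 2 inhibitors 37.9- and 34.2-fold in C and D, and 34.5- and 45.8-fold in A and B. These sums leave out TFS1, which encodes an inhibitor of carboxypeptidase Y. TFS1 had 149.2 and 189.4 TPM in C and D, and 162.1 and 182.8 TPM in A and B. The 2 inhibitors summed to 115.6 and 143.2 TPM in C and D, and to 118.2 and 96.2 TPM in A and B.

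**Figure D2:**
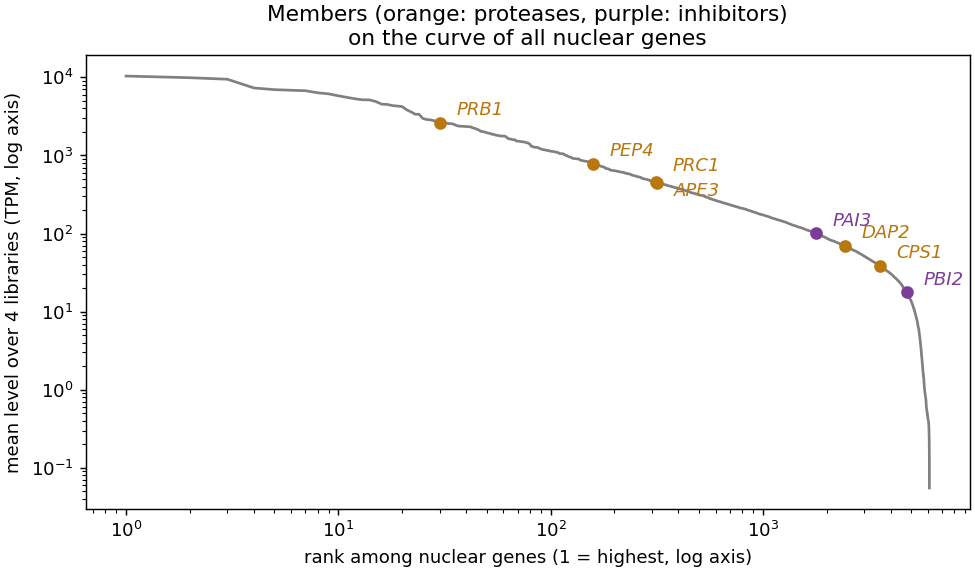
Mean TPM over the 4 libraries (log axis) against rank among nuclear genes (log axis), with the 8 members marked on the curve of all genes. PRB1 stands at rank 30 and PBI2 at rank 4755, and PAI3 and PBI2 both lie below the 4 highest proteases.

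None of the 8 members passed the test between ndt80pch2 and ndt80 (limma-trend), against the background of 0.0173% of tested genes. By limma-voom on the recovered reads the count was also 0, with a background of 0.450%. At an unadjusted p under 0.05 there were 2, PAI3 on the higher side and DAP2 on the lower, against 15.8% of all tested genes, 2.70% higher and 13.1% lower. The unadjusted p-values were 0.0452 for PAI3 and 0.0425 for DAP2, and that of PAI3 rests on a fitted SE below its counting error. For 5 members the 2 strains had no overlap between libraries, beside 51.8% of tested genes. Of these, 3 (PRB1, APE3 and PAI3) were higher in ndt80pch2, against 9.41% of tested genes, and CPS1 and DAP2 were lower, against 42.4%. The uneven background goes with the shift of all genes by -0.15. The median relative log2 fold change of the members was 0.17, or 0.083 without library D, and 5 of 8 lay above 0, against 50.0% of tested genes by construction. The 10 prophase markers had a median of 0.19, and 9 of them lay above 0, so such a lean was not particular to the members.

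A missed threshold does not show that levels were equal, so the intervals are given. The fitted 95% interval of the relative change, not adjusted for 8 genes, lay within 2-fold in either direction for the 6 proteases. In fold terms it was 0.971 to 1.34 for PEP4, 1.03 to 1.54 for PRB1, 0.943 to 1.30 for PRC1 and 1.09 to 1.52 for APE3. For CPS1 the interval was 0.726 to 1.29, and for DAP2 0.714 to 1.10. For the inhibitors the fitted intervals, 1.12 to 1.83 for PAI3 and 0.555 to 1.58 for PBI2, are narrower than counting error allows. Exact 95% intervals for the summed reads of each strain (65 and 65 for PAI3, 10 and 16 for PBI2, ndt80pch2 and ndt80), which hold counting error only, were 1.01 to 2.06 and 0.365 to 2.11. A 2-fold difference in either inhibitor therefore lay within its counting error, upward for PAI3 and in either direction for PBI2. For the proteases the fitted SE was above the counting SE. The fitted intervals of PRB1, APE3 and PAI3 lay above 1 in this relative measure, whereas the p-values test the change before the median is subtracted. Before subtraction the log2 fold changes were 0.18 ± 0.12 for PRB1 and 0.21 ± 0.099 for APE3 (SE). Their limma-trend p-values were 0.181 and 0.0740 unadjusted, and 0.4545 and 0.3338 adjusted.

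**Figure D3:**
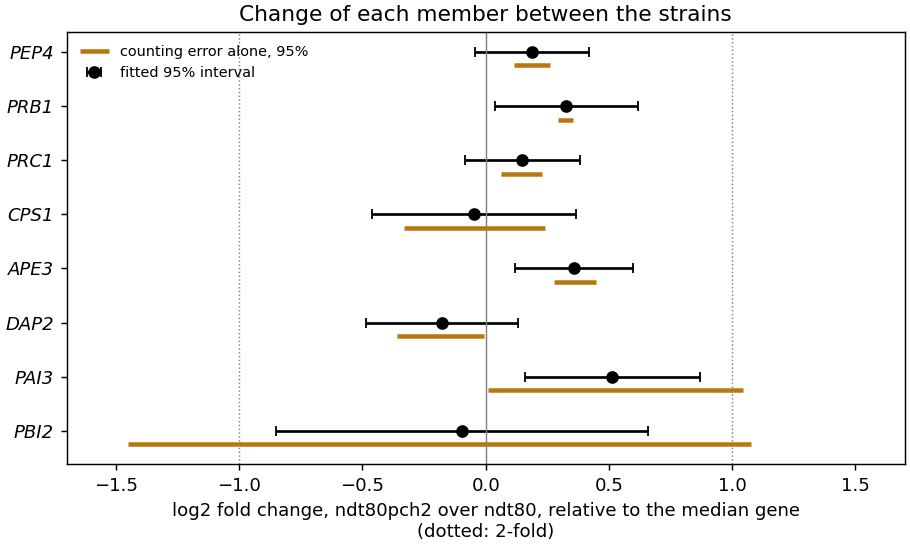
Relative log2 fold change of each member, ndt80pch2 over ndt80, with fitted 95% intervals (black), intervals for counting error alone (orange), a grey line at the median gene and dotted lines at a 2-fold change. The intervals of the 6 proteases stay between the dotted lines, while the counting intervals of PAI3 and PBI2 cross them.

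Library D exceeded library C for 8 of the 8 members, by 1.02 times for PBI2 and up to 1.28 times for CPS1. D exceeded C in 49.1% of all tested genes. This lean was not particular to the members. D was also above C in 9 of 10 prophase, 7 of 12 middle sporulation, 7 of 10 haploid and 9 of 12 vegetative genes. Of the lists described below, it was above in 7 of 10 other vacuolar hydrolase and 18 of 24 sorting genes. The counts were 14 of 18 for H+-ATPase, 8 of 12 for transporter and 7 of 12 for peptidase genes. Library B exceeded A for 4 of the 8, against 49.5% of all tested genes, from 0.548 times (B over A) for PBI2 to 1.11 times for PRB1. The median absolute log2 difference over all tested genes was 0.20 between D and C, and 0.13 between B and A. The members' relative log2 fold changes had a median absolute size of 0.18.

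The value that the deposited ndt80 column prints beside a member is not that member's mean. On the reading of the column that solved 99.94% of its later values in whole reads, each row from 94 on averages its own gene in library A with another gene in library B. Beside PEP4, the column averages PEP4 in A with PET127 in B (28.3 TPM) and prints 395.4. Read row by row, the authors' deposited tables put ndt80pch2 over ndt80 at 2.02 for PEP4, 2.33 for PRB1, 1.99 for PRC1 and 1.68 for APE3. Separated by gene, the ratios of strain means were 1.03 for PEP4, 1.13 for PRB1, 1.00 for PRC1 and 1.16 for APE3. The abundant proteases were the most affected because the partner genes PET127, PRI2, PRK1 and APL2 were far lower than they were. For DAP2 the ratio was 1.13 row by row and 0.797 separated, so its direction turned. PAI3, CPS1 and PBI2 had 1.06, 0.706 and 0.922 row by row, and 1.30, 0.877 and 0.802 separated.

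**Figure D4:**
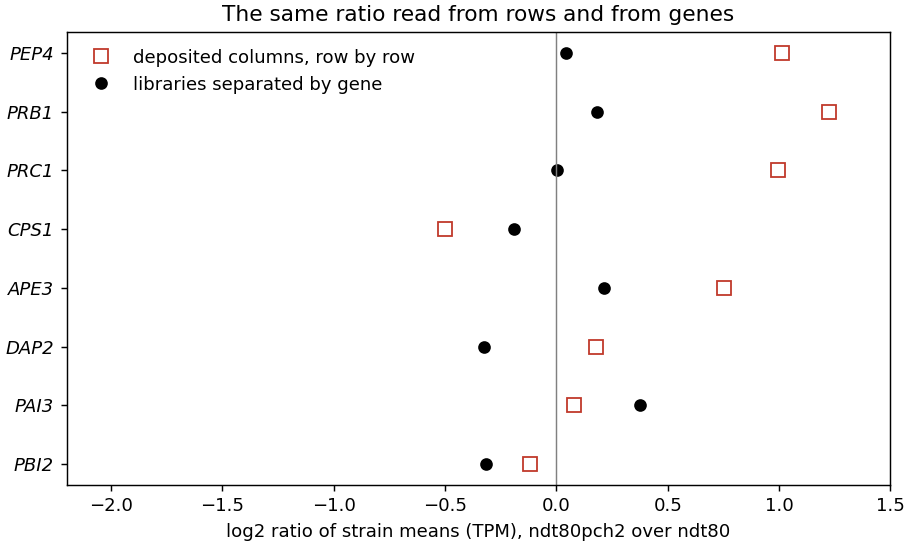
Log2 ratio of strain means, ndt80pch2 over ndt80, for each member, from the deposited columns row by row (open squares) and after separating the libraries by gene (filled circles). PEP4, PRB1 and PRC1 stand near or beyond a 2-fold ratio as squares and near 0 as circles.

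Other genes of the vacuole gave the setting. In a list of 10 genes, 9 for other vacuolar hydrolases and TFS1 for an inhibitor of carboxypeptidase Y, 0 passed the test by limma-trend or limma-voom, 0 had an unadjusted p under 0.05 (15.8% of all tested genes), and the median relative log2 fold change was 0.08. The most abundant were AMS1, which encodes vacuolar alpha-mannosidase, with 402.4 ± 49.8 TPM in ndt80pch2 and 406.0 ± 27.3 in ndt80, and ATH1, the acid trehalase gene, with 255.4 ± 20.1 and 246.2 ± 0.795 TPM (same order; SD, n = 2 each). PHO8, a vacuolar alkaline phosphatase gene, had 237.2 ± 14.0 TPM in ndt80pch2 and 244.0 ± 13.4 in ndt80. The polyphosphatase gene PPN1 had 178.6 ± 5.55 TPM in ndt80pch2 and 195.3 ± 6.38 in ndt80. Of the proteases, PRB1, PEP4, PRC1 and APE3 stood above all of these by strain mean in both strains. In library B alone, AMS1 (425.3 TPM) was above APE3 (406.7 TPM).

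Genes for sorting and delivery of hydrolases, 25 with 24 tested, had 0 calls by both tools and a median of -0.13. At an unadjusted p under 0.05, 0 were higher, against 2.70% of all tested genes, and 7 were lower, against 13.1%. They include VPS21, a Rab GTPase of endosomes, with 199.7 ± 0.150 TPM in ndt80pch2 and 228.1 ± 13.9 in ndt80 (relative log2 fold change -0.04), and YPT7, PEP12 and VAM3 of endosome and vacuole fusion, at 0.04, -0.11 and -0.10. The sorting receptor copy VTH1 was at 0 reads in all 4 libraries. Its near-identical copy VTH2 makes that 0 uncertain, since the counting rule for reads that match several genes is not stated. The vacuolar H+-ATPase, which acidifies the lumen in which the proteases work, had 18 of 19 genes tested, 0 calls by both tools and a median of -0.08, with 0 higher (2.70% of all tested genes) and 6 lower (13.1%) at an unadjusted p under 0.05. STV1 could not be separated in every library and was left out. The most abundant ATPase genes were VMA3, VMA2, VPH1 and VMA13, and VMA3 had 339.6 ± 14.2 TPM in ndt80pch2 and 381.5 ± 10.4 in ndt80 (SD, n = 2 each; relative log2 fold change -0.02).

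Vacuolar amino acid transporters, which move the products of proteolysis, had 12 of 13 genes tested, 0 calls by both tools and a median of -0.18, with 0 higher (2.70% of all tested genes) and 3 lower (13.1%) at an unadjusted p under 0.05. AVT3, AVT4, ATG22 and RTC2 were the most abundant, and AVT4, ATG22 and RTC2 had relative log2 fold changes of -0.09, -0.03 and -0.19. AVT3, an exporter of neutral amino acids, had 202.7 ± 5.17 TPM in ndt80pch2 and 229.2 ± 7.36 in ndt80 (SD, n = 2 each; relative log2 fold change -0.03). Listed last were 12 genes of cytosolic and secretory-pathway peptidases, led by PRD1, APE2, DUG1 and YPS1 (0.10, 0.10, 0.11 and -0.09). Among the 12, 0 passed by either tool and the median was 0.02. At an unadjusted p under 0.05, 0 of these were higher (2.70% of all tested genes) and 2 lower (13.1%). All lists were chosen with results of these data known, and their medians are descriptions.

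**Figure D5:**
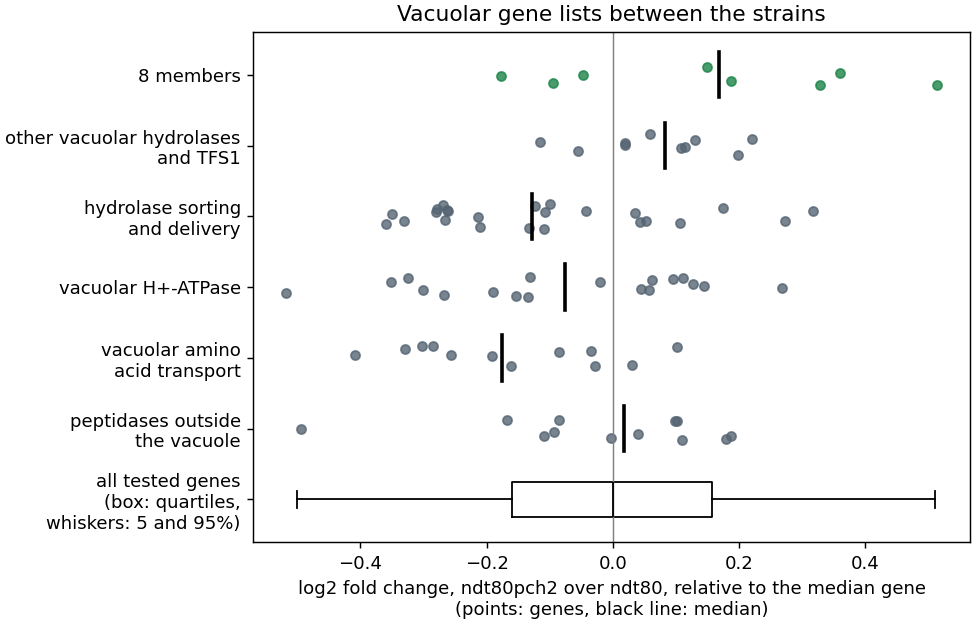
Relative log2 fold change, ndt80pch2 over ndt80, of the members, of other vacuolar gene lists and of peptidases outside the vacuole (points for genes, black lines for medians) above a box of all tested genes. The members' median is 0.17 and the amino acid transporters' -0.18, and the points overlap the box of all genes.

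The genes whose levels ran most like those of PEP4 over the 4 libraries were CDC48, HMG2 and GFA1, by the Euclidean distance of log2(TPM + 1) after centring each gene on its own mean. Their distances were 0.024, 0.026 and 0.028, and 227 of 5188 candidate genes lay within 0.1, so the pattern was a common one. For PBI2 the nearest were YMC2, SDH6 and YPR170W-B, at 0.0027, 0.127 and 0.179, and the median distance of the 5188 candidates was 0.657. PBI2 had only 5 to 10 reads a library, so its distances rest on few reads and cannot show that these genes vary together. With 4 libraries these are descriptions of likeness.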

How the data were processed

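Total RNA of 4 samples (ndt80pch2 and ndt80, 2 each) was depleted of ribosomal RNA, enriched for mRNA and sequenced, per the labels' protocols. The tools named, with no role, are HTSeq 0.9.1, HISAT2 2.1.0, FastQC and DESeq2 2.11.40.6, and the build is R64 (sacCer3), per the submitters' processing notes. The authors deposited 1 TPM-like value per gene and strain in a column without a name, so that its unit rests on the values alone.

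Values were solved as sums of whole reads times 1 step per library, within 0.55 of the last printed digit. This solved 99.98% of ndt80pch2 values above 0, all 90 ndt80 values above 0 before row 94, and 99.94% of its later rows when the second library was read from the list without the 18 mitochondrial rows, against 9.16% in printed order. Solving was tested on simulated columns built with the same row order, which cannot test that reading. Coding lengths came from the RefSeq R64 annotation, and 11 of 12 genes without a solution were given another length. In all, 19 nuclear genes were left out.

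For genes with a mean of at least 1 TPM, limma 3.58.1 (limma-trend, genotype only, R 4.3.3) was run on log2(TPM + 1) with Benjamini-Hochberg adjustment over 5783 genes, with calls at an adjusted p under 0.05. Fitted intervals use the moderated error of that fit, and counting intervals are exact binomial intervals on summed reads, added after seeing the data. Named genes were the 8 members, PCH2 and NDT80, up to 4 of the highest mean level per list, any called gene of a list, and the 3 genes most like PEP4 and PBI2. The members and lists were chosen with earlier results of these data known. Alternatives were pseudocount 0.1, no filter, a mean of at least 10 TPM, median-of-ratios factors, limma-voom, each library left out and, added after seeing the data, nuclear totals made equal. Other steps used matplotlib 3.10.9, pandas 2.3.3, numpy 2.4.6 and Python 3.11.15.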

Additional observations from a re-analysis of the deposited data

How the results depend on the processing

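The count of 0 members called held under the alternatives run: pseudocount 0.1, no filter, a mean of at least 10 TPM, median-of-ratios factors, limma-voom, equal nuclear totals (chosen after seeing the data) and each library left out. Of 80 single-member values under these alternatives, 78 kept their direction. The exceptions were CPS1 without library C (0.131, with a range from -0.237 to 0.131 as libraries were left out) and PBI2 without library A (0.313, range -0.503 to 0.313). The cause was not tested, and PBI2 rests on 5 to 10 reads a library. The members' median stayed between 0.083 (without library D) and 0.24 (without C). The PAI3 to PEP4 difference ranged from 0.216 to 0.442 as libraries were left out, and the PBI2 to PRB1 difference from -0.944 to 0.0755, turning without library A. Genes called over all nuclear genes numbered 25 with no filter, 4 with a mean of at least 10 TPM and 26 by limma-voom, against 1. With no filter 6645 genes were tested, and 5196 with a mean of at least 10 TPM. Limma-voom tested the same 5783 genes as the main fit. The cause of these differences in calls was not tested. Taken row by row, the deposited ndt80 column puts PEP4 at 395.4, PRB1 at 1203, PRC1 at 227.3, CPS1 at 51.2, APE3 at 285.2, DAP2 at 54.8 and PAI3 at 107.6, against separated means of 776.3, 2478, 452.8, 41.2, 413.6, 77.8 and 87.4 TPM; the construction of that column, which mixes genes, accounts for it. No paired analysis was possible because the deposited columns carry no replicate number for the recovered libraries.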
